A study of Mus musculus with 7 samples.

Results

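The genes described here are 10 secreted digestive enzymes and cofactors of the mouse stomach: the aspartic protease precursors Pgc, Pga5 and Cym, the lipase cofactor Clps, the lipases Pnliprp1, Pnliprp2 and Cel, the phospholipase Pla2g1b, the chitinase Chia and the trypsinogen Try4. They were taken by name from the gene rows, and each of the 10 was found among the 18907 genes besides spike-in RNAs. The cells were single living cells from gastric glands of wild-type C57BL/6 mice, without any treatment named, sorted into plates of 384 wells and sequenced by SORT-seq, a plate version of CEL-seq2 that tags each captured 3′ RNA end with a unique molecular identifier (UMI). The pylorus, the distal region of the stomach, gave 3 plates, and the corpus, its main acid-secreting region, gave 4. Of 2688 wells, 2235 held at least 1000 UMIs and are the cells described: 983 from the pylorus and 1252 from the corpus. The labels do not say which animals the plates came from, so p-values measure the spread between plates, which may be technical.

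Pepsinogens are inactive precursors that acid in the stomach lumen turns into proteases, and they are the classical product of chief cells at the base of corpus glands and, at a lower level, of mucous neck and pyloric gland cells. Lipases of the pancreatic family split dietary fats, and colipase, the product of Clps, holds pancreatic lipase on fat droplets in the presence of bile salts. Pancreatic acinar cells are the textbook source of most of these lipases, of trypsinogens and of Pla2g1b, whereas rodents also make several of them in the stomach. Cel encodes the bile salt-stimulated lipase, Chia the acidic mammalian chitinase, and Cym chymosin, the milk-clotting protease known from suckling animals.

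Of the 10 genes, 7 had a promoter window in RefSeq (GRCm38.p6), and 3 are printed to set the windows of Pnliprp1 and Cel, the members highest in endocrine-like cells, beside that of Pnliprp2, which lies next to Pnliprp1 on chromosome 19 and was highest in chief-like cells. Each run is the 250 bases before the transcription start, 5′ to 3′ on the strand of the gene. Capitals mark CANNTG, the E-box letters that basic helix-loop-helix factors such as Ptf1a and Bhlha15 recognise, and TTTCCC, letters bound by the Rbpj and Rbpjl part of the PTF1 complex. Both strands were searched, and no 2 matches overlapped.
Pnliprp1, chr19:58728637-58728886, plus strand: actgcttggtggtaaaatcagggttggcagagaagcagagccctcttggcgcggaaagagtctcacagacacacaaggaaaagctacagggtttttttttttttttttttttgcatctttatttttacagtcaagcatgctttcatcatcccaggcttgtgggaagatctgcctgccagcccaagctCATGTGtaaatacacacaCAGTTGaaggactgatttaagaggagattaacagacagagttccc
Pnliprp2, chr19:58759473-58759722, plus strand: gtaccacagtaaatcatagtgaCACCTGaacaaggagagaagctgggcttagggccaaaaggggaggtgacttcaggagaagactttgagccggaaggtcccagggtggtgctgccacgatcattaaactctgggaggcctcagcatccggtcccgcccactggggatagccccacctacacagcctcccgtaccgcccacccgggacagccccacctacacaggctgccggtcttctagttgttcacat
Cel, chr2:28563404-28563653, minus strand: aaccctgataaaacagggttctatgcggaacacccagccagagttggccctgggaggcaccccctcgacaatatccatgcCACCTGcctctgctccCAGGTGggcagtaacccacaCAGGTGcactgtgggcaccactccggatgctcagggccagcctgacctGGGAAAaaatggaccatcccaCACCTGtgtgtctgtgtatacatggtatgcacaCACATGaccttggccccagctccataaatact
The Cel window held 5 CANNTG matches and 1 TTTCCC match, read on the other strand as GGGAAA. Pnliprp1 had 2 CANNTG matches and Pnliprp2 had 1, and neither window held TTTCCC. Over 32851 promoter windows of this length, 66.2% held CANNTG and 21.9% held TTTCCC, so a match is common and is no more than a description of the letters. Among the 7 windows, CANNTG was found in 4 (the printed ones and Try4) and TTTCCC in 2 (Cel and Cym).

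Total UMIs per plate lay between 2646492 and 9511078, and pylorus 1 and corpus 1 were the shallowest, with medians of 8240 and 6899 UMIs per kept well against 19648 to 25545 in the other 5 plates. Cells were clustered without the 10 genes and named from other markers, which gave 276 chief-like, 460 neck-like, 281 endocrine-like, 449 pit-like, 139 parietal-like, 150 proliferating-like, 50 tuft-like and 115 mast-like cells. Another 315 cells stayed unnamed. Tmed6 was among the leading genes of each chief-like cluster, Gif in the cluster of 95 cells and Bhlha15 in that of 181. Muc6 and A4gnt were among those of the neck-like clusters of 268 and 172 cells, and Gkn3 in the latter. A further neck-like cluster, 20 cells of corpus 1 alone, was led by Gkn3, Cldn2 and Aqp5. Chief-like and neck-like cells of pylorus 1, corpus 1 and corpus 2 fell mostly in other clusters than those of the other 4 plates, and corpus 1 had 4 chief-like cells, too few to use. Both regions held chief-like and parietal-like cells: the pylorus plates held 35, 59 and 61 chief-like and 2, 12 and 20 parietal-like cells, and the corpus plates 4, 56, 36 and 25 chief-like and 3, 4, 56 and 42 parietal-like cells. All plates used the same 384 well barcodes.

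The 10 genes made up 41.5% ± 6.48 (SD, n = 6 plates) of all UMIs in chief-like cells and 18.5% ± 3.32 (n = 7) in neck-like cells. In the other named classes their share was between 5.83% ± 2.13 in pit-like cells (n = 7) and 11.3% ± 1.73 in mast-like cells (n = 4). Pgc was the most abundant gene in the tables with 3870944 UMIs, Clps ranked 4 with 1347273 and Pla2g1b ranked 5 with 1326542. Chia had 371118 UMIs and ranked 18. The other members were far scarcer, with 20874 UMIs for Pnliprp1, 11207 for Cel, 10674 for Pnliprp2, 6234 for Pga5, 1605 for Try4 and 1259 for Cym. Levels are given as counts per 1000000 UMIs of the cells summed (CPM), or as a percent of those UMIs, without division by length, because 1 RNA end was counted per molecule.

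**Figure D1:**
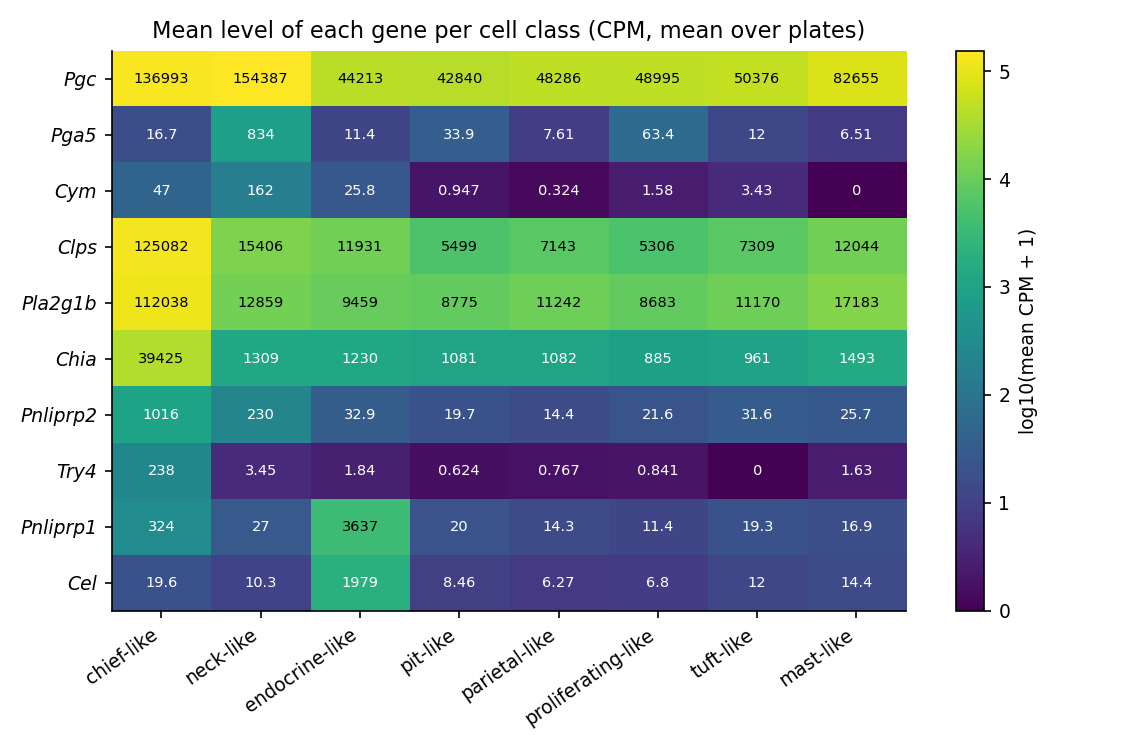
Mean level of the 10 genes (rows) in the 8 named cell classes (columns), in CPM averaged over plates with at least 10 such cells; the colour shows log10 of the mean plus 1. Clps, Pla2g1b, Chia, Pnliprp2 and Try4 peak in chief-like cells, Pga5 and Cym in neck-like cells (for Cym this rests on pylorus 1), and Pnliprp1 and Cel in endocrine-like cells, whereas Pgc, Clps, Pla2g1b and Chia have some UMIs in every class.

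UMIs of the most abundant members were found in wells of every kind. Mast cells are of blood origin and make no pepsinogen, yet Pgc took 8.27% ± 0.888 of the UMIs in mast-like cells (SD, n = 4 plates), at a median depth of 3691 UMIs. Wells under 1000 UMIs, which were not used as cells, had Pgc at 172444 to 257639 CPM in the 3 pylorus plates and at 64678 to 423879 CPM in the 4 corpus plates. Pgc, Clps, Pla2g1b and Chia levels at or below those of mast-like cells are therefore not read here as expression by the cells concerned. That level was not the same mixture in each class: Clps UMIs per Pla2g1b UMI numbered 0.666 to 0.756 in mast-like cells and 0.973 to 1.41 in neck-like cells. The part of such UMIs in the differences between regions was not tested.

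The level of the most abundant members also met a limit of the method. A UMI of 6 bases can take only so many forms, 4 choices at each base, and the highest count of any gene in a well was 1 below that number. In chief-like wells the median count was 4086 for Pgc, 3810.5 for Clps, 3486.5 for Pla2g1b and 446.5 for Chia. At least 3500 UMIs were counted in 248 of the 276 chief-like wells for Pgc, in 189 for Clps, in 137 for Pla2g1b and in 27 for Chia. Deposited counts of the first 3 genes therefore understate their share in chief-like cells, and that of the 10 genes together. Values corrected for UMIs drawn more than once are given below for Pgc. Clps averaged 12.5% as deposited and 17.5% corrected, and Pla2g1b 11.2% and 13.0% (n = 6 plates). The limit also raises the levels of scarcer genes in chief-like cells. Pnliprp2, Pnliprp1, Try4 and Cel averaged 1016, 324, 238 and 19.6 CPM as deposited and 496, 160, 120 and 9.02 CPM corrected. Levels and folds below are as deposited unless called corrected. Near the limit such corrected values are imprecise.

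**Figure D2:**
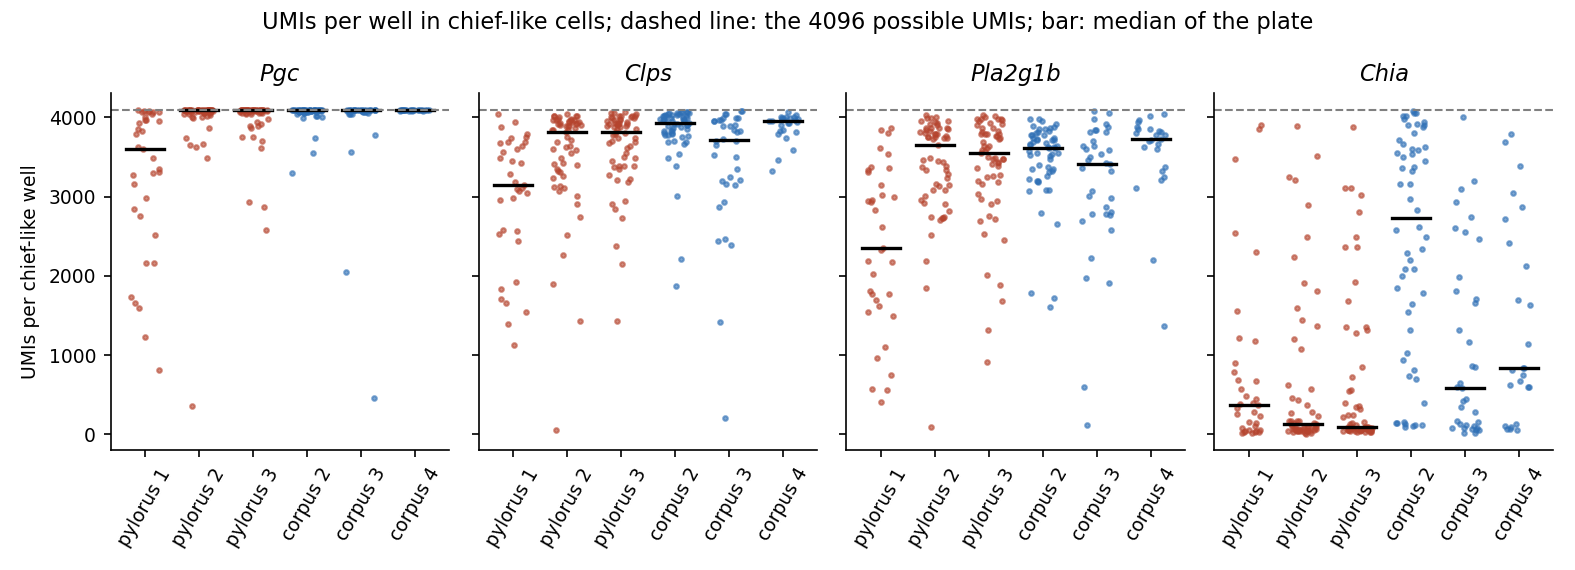
UMIs per well (vertical axis) of Pgc, Clps, Pla2g1b and Chia in chief-like wells of 6 plates, 3 from the pylorus and 3 from the corpus; each point is a well, each bar the median of a plate, and the dashed line marks the number of possible UMIs. Pgc, Clps and Pla2g1b crowd towards the line, whereas Chia spreads over the whole range, with plate medians of 91 to 376 in the pylorus and 588 to 2724 in the corpus.

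Pgc encodes pepsinogen C, also called progastricsin. In chief-like cells it took 18.5%, 14.6% and 13.2% of the deposited UMIs in pylorus plates 1 to 3 and 12.0%, 12.1% and 11.8% in corpus plates 2 to 4. In neck-like cells it took 17.6%, 17.6% and 14.9% in the pylorus plates and 11.2%, 17.2%, 14.1% and 15.5% in the corpus plates. Taken as deposited, Pgc was thus lower in chief-like than in neck-like cells in 5 of 6 plates, all but pylorus 1. After correction for repeated UMIs the order turned in those 5 plates: chief-like cells had 33.5%, 38.1% and 35.1% in the pylorus plates and 33.1%, 32.4% and 35.6% in corpus plates 2 to 4. Corrected neck-like shares were 24.7%, 31.7% and 25.6% in the pylorus plates and 14.4%, 32.6%, 23.6% and 31.4% in the corpus plates. Chief-like cells were then higher in 6 of 6 plates, though in corpus 2 by less than 1 percentage point.

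Pga5, a pepsinogen A, did not follow Pgc. It was highest in neck-like cells, at 9.54-fold to 40.7-fold the level in the other cells of the same plate, and higher in 7 of 7 plates. Neck-like cells had 2197, 271 and 212 CPM in the pylorus plates and 1029, 1578, 210 and 345 CPM in the corpus plates. In corpus 1, a cluster of 20 neck-like cells found in no other plate had 67.3 CPM of Pga5 and 58771 CPM of Pgc. The other 49 neck-like cells of corpus 1 had 1603 and 143105 CPM, so the values of that plate mix both clusters. The plates split within each region: pylorus 1 and corpus plates 1 and 2 were at 1029 CPM or above and the other 4 at 345 CPM or below. The same 3 plates drew their neck-like cells mostly from a cluster led by Muc6, Spp1 and Gkn3, and the other 4 from a cluster led by Bpifb1, Pigr and Ppp2r1b, so cluster and plate cannot be told apart here. Chief-like cells had a mean of 16.7 ± 11.1 CPM of Pga5 (SD, n = 6 plates), and 83.4% of all its UMIs lay in neck-like cells.

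**Figure D3:**
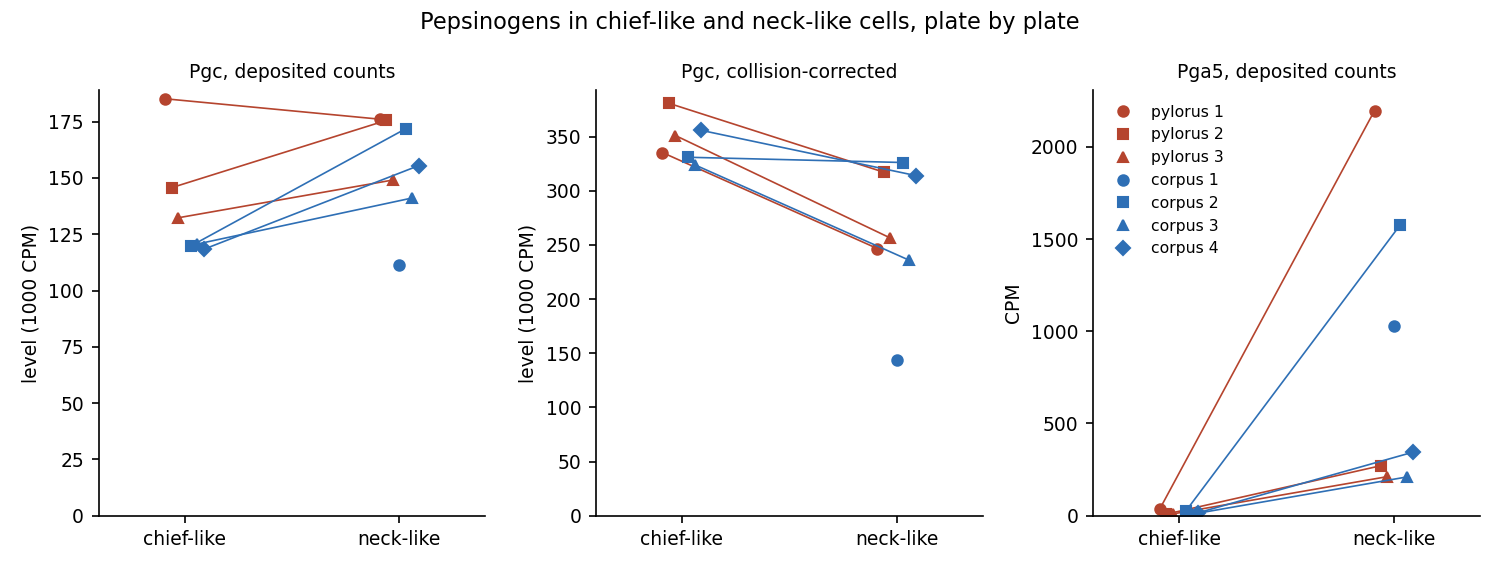
Level of Pgc as deposited (left) and corrected for repeated UMIs (middle), in units of 1000 CPM, and of Pga5 in CPM (right), in chief-like and neck-like cells; lines join the classes of a plate, and corpus 1 has a neck-like value alone. For Pgc most lines run upward to neck-like cells as deposited and downward after correction, whereas for Pga5 neck-like cells are higher in each plate with both classes.

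Clps, Pla2g1b, Chia, Pnliprp2 and Try4 formed a chief-like set, each higher in chief-like cells than in the other cells of the plate in 6 of 6 plates. Clps had 17.1%, 12.8% and 12.0% of UMIs in chief-like cells of the pylorus plates and 11.3%, 10.6% and 11.2% in those of corpus plates 2 to 4, which was 8.28-fold to 15.9-fold its level in other cells. Pla2g1b, which releases fatty acids from phospholipids, had 13.5%, 12.4% and 11.2% in the pylorus plates and 10.2%, 9.67% and 10.2% in the corpus plates, or 7.38-fold to 12.7-fold. Both genes were limited by the UMI number in chief-like wells and had UMIs in wells of every kind, and both lower these folds. Mean levels in neck-like cells were 1.54% ± 0.670 for Clps and 1.29% ± 0.530 for Pla2g1b (SD, n = 7). Mast-like cells, from fewer plates, had 1.20% ± 0.394 and 1.72% ± 0.569 (n = 4). In those 4 plates, corpus 3 and 4 and pylorus 2 and 3, neck-like cells had 12449, 16750, 25942 and 17311 CPM of Clps. Mast-like cells had 8009 to 9481 CPM in the corpus and 14375 to 16311 CPM in the pylorus. Clps was thus higher in neck-like than in mast-like cells in each of those plates, and Pla2g1b in corpus 4 alone.

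Pnliprp2 encodes a lipase that also splits galactolipids of plants. Chief-like cells had 1427, 646 and 751 CPM in the pylorus plates and 1588, 822 and 865 CPM in the corpus plates, and the groups overlapped. Its level in chief-like cells was 7.92-fold to 34.8-fold that of other cells. Neck-like cells had a mean of 230.4 ± 152 CPM (SD, n = 7), and pit-like, parietal-like and mast-like cells averaged 14.4 to 25.7 CPM. Try4, a trypsinogen, was the member most restricted to chief-like cells, which held 95.7% of its 1605 UMIs. Its level there was 603, 110 and 164 CPM in the pylorus plates and 154, 178 and 221 CPM in the corpus plates, with pylorus 1 standing above the other 5. Try4 shares sequence with other trypsinogens such as Try10, and the tables do not say how the authors' counting assigned shared reads.

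Chia was 18.5-fold to 42.6-fold higher in chief-like cells than in other cells, and its counts varied widely between chief-like wells. Across the 276 chief-like wells its middle 50% ran from 85.8 to 2208.5 UMIs, a range that also holds differences between plates. Within the plates of lowest and highest median it ran from 59 to 724 UMIs (pylorus 3) and from 1243.75 to 3633.25 UMIs (corpus 2). That of Clps over the 276 wells ran from 3352 to 3962 UMIs. Clps was limited there by the UMI number, which narrows its range, so the spread of the 2 genes from cell to cell cannot be compared. The median chief-like well had 376, 127 and 91 Chia UMIs in pylorus plates 1 to 3 and 2724, 588 and 835 in corpus plates 2 to 4. All 3 pylorus medians lay below all 3 corpus medians. The share of chief-like wells with more than 1000 Chia UMIs was 22.9%, 23.7% and 23.0% in the pylorus plates and 76.8%, 38.9% and 44.0% in the corpus plates. The mean difference of the medians, pylorus minus corpus, was -1184 UMIs, from 198.0 ± 155 in the pylorus and 1382 ± 1168 in the corpus (SD, n = 3 each). Its two-sided exact permutation p was 0.1, the smallest that 3 plates against 3 allow, so the threshold of 0.05 was out of reach, and the measure was chosen after its values were seen.

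The same pattern was weaker as a share of UMIs. Summed over chief-like wells, Chia took 4.51%, 2.37% and 2.15% of UMIs in the pylorus plates and 7.21%, 3.39% and 4.03% in the corpus plates, where pylorus 1 lay within the corpus range. The median chief-like well of pylorus 1 had 16005 UMIs in all, against 26858 to 36624 in the other 5 plates. As a median percent of a well's UMIs Chia had 2.36%, 0.529% and 0.447% in the pylorus plates and 8.58%, 1.70% and 2.75% in the corpus plates (exact permutation p = 0.2). The fit over all genes gave a log2 difference, pylorus minus corpus, of -0.64 ± 0.43 (SE) with an adjusted p of 0.999 in limma. With limma on the plates of like depth alone, pylorus 2 and 3 against corpus 3 and 4, it was -0.73 ± 0.18 (adjusted p = 0.0545). In that fit 0.602% of genes passed. Corrected counts over all plates gave -0.85 ± 0.51 (adjusted p = 0.999 in limma), and Chia passed in neither.

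Pnliprp1 and Cel were highest in endocrine-like cells and not in chief-like cells. Pnliprp1 belongs to the pancreatic lipase family and is known for little lipase activity of its own. Endocrine-like cells had 3456, 2583 and 3372 CPM of Pnliprp1 in the pylorus plates and 1840.0, 7903, 3011 and 3295 CPM in the corpus plates. The pylorus values lay inside the corpus range, whose lowest plate was corpus 1 and whose highest was corpus 2. The make-up of the endocrine-like cells differed between these plates, as given below. Against the other cells of the same plate the level was 19.5-fold to 67.4-fold higher, in 7 of 7 plates. Chief-like cells came next with a mean of 324 ± 173 CPM (SD, n = 6), above the 27.0 ± 19.3 CPM of neck-like cells (n = 7) and the 20.0 ± 10.1 CPM of pit-like cells (n = 7).

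Cel was more restricted. Endocrine-like cells had 1064, 1411 and 1808 CPM in the pylorus plates and 216, 4767, 2009.6 and 2582 CPM in the corpus plates, and again corpus 1 and corpus 2 were the lowest and the highest. In the 6 plates where other cells had a Cel UMI, the level was 108-fold to 668-fold higher in endocrine-like cells, and in corpus 1 the other cells had no Cel UMI. Chief-like cells had a mean of 19.6 ± 19.4 CPM, close to the 14.4 ± 7.53 CPM of mast-like cells (SD, n = 6 and 4). Endocrine-like cells held 95.4% of all Cel UMIs and 85.3% of all Pnliprp1 UMIs, while being 12.6% of the cells.

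At equal depth, the share of cells with a UMI of Pnliprp1 or Cel was also highest in endocrine-like cells, on average over plates. With each cell thinned to 1000 UMIs, Pnliprp1 had a UMI in 78.9%, 68.8% and 82.5% of endocrine-like cells in the pylorus plates and in 36.4%, 84.7%, 85.3% and 72.7% in the corpus plates. Thinned Cel was seen in 52.6%, 39.6% and 55.0% in the pylorus plates and in 9.09%, 72.9%, 64.7% and 60.6% in the corpus plates. In pit-like cells, which are not known to make these lipases, the thinned shares were 0.980% to 4.76% for Pnliprp1 and 0% to 4.00% for Cel. Without thinning, at a median of 11374 UMIs in endocrine-like cells, Pnliprp1 was seen in 36.4% to 94.1% and Cel in 18.2% to 94.1% of endocrine-like cells per plate. Chief-like cells were deeper, at a median of 29624 UMIs, and without thinning 80.3% to 100% of them had a Pnliprp1 UMI. Their mean share, 90.7%, was above the 81.8% of endocrine-like cells, but with thinning it was 24.2% against 72.8%. Both genes were seen in 223 of the 281 endocrine-like cells, Pnliprp1 alone in 20, Cel alone in 4 and neither in 34.

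**Figure D4:**
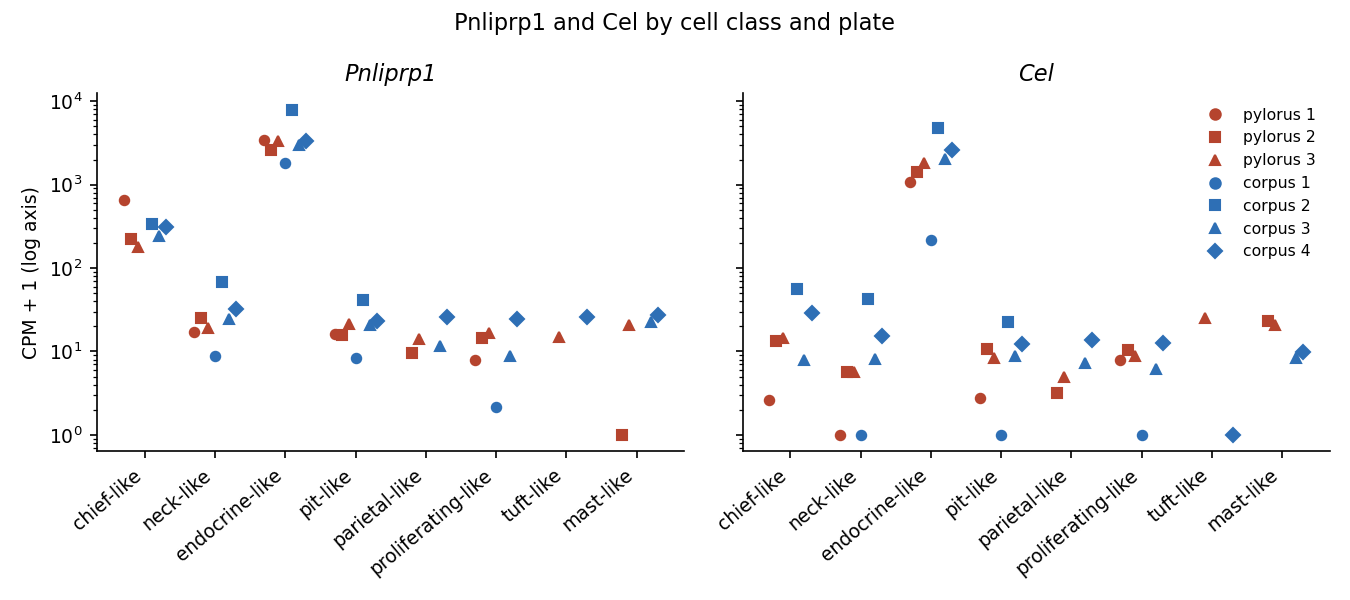
Level of Pnliprp1 (left) and Cel (right) in CPM plus 1, on a log axis, in 8 cell classes; each symbol is a plate with at least 10 such cells, red for the pylorus and blue for the corpus. Endocrine-like cells stand above all other classes in each plate, from 1840.0 to 7903 CPM for Pnliprp1 and from 216 to 4767 CPM for Cel.

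Pnliprp1 and Cel were not spread evenly over the endocrine-like cells. Endocrine-like cells fell into 2 clusters that were formed without the members. The larger cluster, 244 cells, was led by Gc, Nov, Pappa2, Vtn and Hdc, the enzyme that makes histamine and marks enterochromaffin-like cells. The smaller, 37 cells, was led by Sst, the somatostatin gene, and Pcsk2. Summed over plates, the larger cluster had 5493 CPM of Pnliprp1 and 3299.8 CPM of Cel, and the smaller had 32.2 and 25.8 CPM, from 10 and 8 UMIs. Cells with a Pnliprp1 UMI were 96.7% of the larger cluster (95% Wilson interval 93.7% to 98.3%, at a median depth of 12139 UMIs) and 18.9% of the smaller (9.48% to 34.2%, at 6646 UMIs). Over the 7 plates Pnliprp1 lay between 2879 and 8361 CPM in the larger cluster and Cel between 662 and 5042 CPM. In the smaller cluster Pnliprp1 did not exceed 63.4 CPM in the 4 plates with at least 5 such cells. Corpus 1 had 13 of its 22 endocrine-like cells in the smaller cluster, and corpus 2 had 7 of 85. Levels, shares and region differences over all endocrine-like cells therefore mix the 2 clusters in proportions that vary between plates.

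Ghrelin separated the clusters further. By their most abundant hormone gene, 135 cells of the larger cluster were led by Ghrl and 106 by Hdc, but both sets carried Hdc, at 5046 and 6144 CPM. Their Pnliprp1 levels were 5902 and 4891 CPM and their Cel levels 3092 and 3616 CPM. The 11 cells of the smaller cluster led by Ghrl had 212944 CPM of Ghrl, against 21088 CPM in the Ghrl-led set of the larger cluster, and 130.4 CPM of Hdc. Those 11 cells had 37.3 CPM of Pnliprp1 and 18.6 CPM of Cel, from 6 and 3 UMIs, and the 21 cells led by Sst had 30.2 and 37.8 CPM. The smaller cluster also held 5 cells led by Gast, the gastrin gene, at 186483 CPM of Gast. All 5 came from corpus 1 and none from a pylorus plate. They had no UMI of either lipase, where 3 UMIs would be 178 CPM. Cells with much Hdc thus carried both lipases, and cells with the most Ghrl or Sst had 37.8 CPM or less of either, above the means of 20.0 and 8.46 CPM in pit-like cells but from few UMIs. Cells of several of these sets were too few per plate for a test over plates.

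A pair of pancreatic transcription factors was also highest in endocrine-like cells, and there in the larger cluster. Ptf1a and Rbpjl, subunits of the PTF1 complex that drives acinar enzyme genes in the pancreas, had means of 445 ± 149 and 351 ± 119 CPM in endocrine-like cells (SD, n = 7 plates). Neither exceeded a mean of 7.91 CPM in any other named class, chief-like cells included, where Pnliprp1 averaged 324 CPM. In the larger endocrine cluster Ptf1a had 485 CPM and was seen in 86.9% of cells, and Rbpjl had 422 CPM and was seen in 89.3%. In the smaller cluster each had 1 UMI in all. No part of these factors in the lipase levels was tested.

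Most other pancreatic enzymes were scarce in the same cells. Of a list of 27 other digestive enzymes, 21 had a row in the tables and 8 reached 100 UMIs. The 8 did not share a class. Ctse, the protease cathepsin E, was the most abundant with 59997 UMIs and was highest in pit-like cells at 2810.5 CPM, and Try10 was highest in chief-like cells at 241 CPM. Cela1, an elastase, averaged 586 CPM in neck-like cells through corpus 1, at 3369 CPM. The cluster of 20 neck-like cells found in that plate alone had Cela1 among its leading genes. Without that plate neck-like cells averaged 122 CPM, and proliferating-like cells, at 127 CPM, were the highest class. Amy1, Cela2a and Ctrb1, an amylase, an elastase and a chymotrypsinogen, were highest in endocrine-like cells but low, at 17.8, 17.0 and 15.9 CPM. Rnase1 was highest in parietal-like cells at 73.9 CPM and Lyz1 in mast-like cells at 555 CPM. Pnlip, the neighbour of Pnliprp1 and the main pancreatic lipase, had 92 UMIs in all, and Lipf, the gastric lipase, had 1.

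Genes of zymogen secretion were spread over classes. Of 18 such genes, including transcription factors, 13 reached 100 UMIs, of which 4 were highest in chief-like cells. These were Xbp1, the factor that expands the secretory pathway, at 1251 CPM, Tmed6, a cargo receptor of the early secretory pathway, at 1199 CPM, Cckar, the cholecystokinin receptor, at 794 CPM, and Bhlha15, the chief and acinar maturation factor, at 169 CPM. Neck-like cells had 984, 92.0, 168 and 17.3 CPM of these genes. The remaining 9 genes were highest in endocrine-like (2), neck-like (2), pit-like (2), parietal-like, proliferating-like and tuft-like cells (1 each). For 2 of them, Gata4 in proliferating-like and Rab3d in pit-like cells, leaving out a plate put another class first.

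Cym stood apart because it was found almost only in the pylorus plates. Wells with a Cym UMI numbered 19, 7 and 32 in pylorus plates 1 to 3, or 7.60%, 1.92% and 8.67% of kept wells, and 0, 0, 0 and 1 in corpus plates 1 to 4. A count of 0 allows up to 1.08% of wells in corpus 1 and in corpus 2 and 0.831% in corpus 3. All 3 pylorus plates were above all 4 corpus plates, and on the log2 scale of the fit below Cym was the 1 member with such an order in all cells, which 1.72% of all genes tested had. With 0 Cym UMIs in corpus plates 1 to 3, Cym met the filter of that fit only with the pylorus plates. The mean share was 6.07% ± 3.63 in the pylorus (SD, n = 3) and 0.0749% ± 0.150 in the corpus (n = 4), a difference of 5.99 percentage points. The two-sided exact permutation p was 0.0286, the smallest of 35 splits, in a comparison chosen after the counts were seen. Leaving out 1 plate gave 0.0667 or 0.1, each the smallest p that the remaining plates allow.

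**Figure D5:**
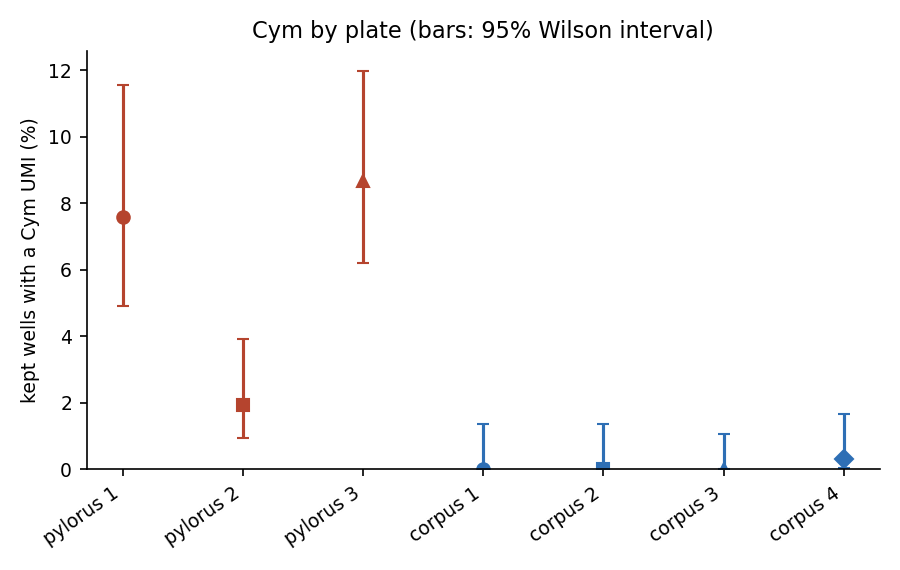
Percent of kept wells with at least 1 Cym UMI in each plate; bars are 95% Wilson intervals, which cover counting error only. The pylorus plates lie at 1.92% to 8.67%, and the corpus plates at 0% to 0.299%.

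Few wells carried most of the Cym UMIs. In pylorus 1 a single well held 449 of 486 UMIs, in pylorus 2 a single well held 70 of 76, and in pylorus 3 the highest wells held 399 and 199 of 685. Of the 59 wells with Cym, 9 had 10 UMIs or more, and whether the remaining wells hold their own Cym RNA was not tested. Of these 9 wells, 4 were neck-like, 2 chief-like, 1 endocrine-like and 2 unnamed. The mean level was highest in neck-like cells, at 161.6 CPM, through pylorus 1 at 921 CPM, but without that plate it was 35.1 CPM there and 53.5 CPM in chief-like cells. Wells with any Cym UMI numbered 21 among chief-like and 12 among neck-like cells. Muc6, the mucin that marks neck and gland mucous cells, had at most 13 UMIs in any of the 9 wells with 10 Cym UMIs or more. The limma fit over all genes gave Cym a log2 difference, pylorus minus corpus, of 6.79 ± 1.04 (SE) in all cells, with an adjusted p of 0.451, and 5.25 ± 0.75 in chief-like cells, with an adjusted p of 0.145. With limma on the 4 plates of like depth alone, pylorus 2 and 3 against corpus 3 and 4, it was 5.43 (adjusted p = 0.00259) in all cells, where 3.56% of genes passed. In chief-like cells it was 6.12 (adjusted p = 1.7e-08), where 0.602% passed. Chief-like cells of corpus plates 2 to 4 had 0 Cym UMIs, so Cym met the filter there through the pylorus plates alone. The size of that difference depends on the pseudocount. Single chief-like wells held 70 of 73 Cym UMIs in pylorus 2 and 399 of 407 in pylorus 3, and the p rests on those wells.

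Over all genes few differences between the regions passed the test. In the fits over all plates, adjusted p was under 0.05 for 2 of 12003 genes in all cells (0.0167%), 0 of 7064 in chief-like cells (0%), 3 of 8181 in neck-like cells (0.0367%), 0 of 8526 in pit-like cells (0%) and 0 of 6253 in endocrine-like cells (0%), with limma and Benjamini-Hochberg adjustment. At an unadjusted p under 0.05 these fits counted 153 (1.27%), 177, 275, 203 and 110 genes. None of the 10 members passed in any of the 5 fits. In all cells 8 of the 10 were higher in the pylorus, with a median log2 difference of 0.33 beside 0.01 over all genes tested, but 1 alone, Cym, had an unadjusted p under 0.05. The other digestive enzymes (7 of 27 tested) and the zymogen secretion genes (13 of 18 tested) had medians of -0.41 and 0.22 in all cells, and none of either list passed. In a sum over all cells, fewer cells of a class and less RNA per cell cannot be told apart.

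In chief-like cells the values of Pgc, Clps, Pla2g1b and Cym did not overlap between regions on the log2 scale of the fit, each higher in the pylorus. These were 4 of 10 members beside 4.01% of the 7064 genes tested. Cym had 0 UMIs in chief-like cells of corpus plates 2 to 4 and met the filter through the pylorus plates alone, which fixed its order. Pgc, Clps and Pla2g1b were limited by the UMI number, so the 4 genes are not read as an excess over that share. The log2 differences, pylorus minus corpus, were 0.41 ± 0.38 (SE) for Pgc, 0.38 ± 0.38 for Clps and 0.35 ± 0.36 for Pla2g1b, none of which passed (adjusted p = 0.999 each). Total UMIs per well were lower in the pylorus: the median chief-like well held 16005, 26858 and 29692 UMIs in the pylorus plates and 33759, 32062 and 36624 in corpus plates 2 to 4. With each cell thinned to 1000 UMIs the differences of Pgc, Clps and Pla2g1b were 0.49, 0.45 and 0.42. With the 4 plates of like depth alone they were 0.19, 0.17 and 0.22, and none passed in either setting. Thinning drew on the deposited counts and so keeps the effect of the UMI limit on shares, which it cannot take out. The part of depth was not tested beyond these values. With UMI counts corrected as above, the differences were 0.01 for Pgc, 0.09 for Clps and 0.19 for Pla2g1b.

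Pnliprp1 and Cel did not pass in endocrine-like cells, with log2 differences of -0.21 ± 0.46 and -0.19 ± 0.91 (SE) and adjusted p of 0.983 and 0.990 in limma. These sums took in both endocrine-like clusters, and the part of their mix was not tested. For Pga5 in neck-like cells the log2 difference was -0.25 ± 0.76 and for Pnliprp2 in chief-like cells -0.18 ± 0.36, with adjusted p of 1 and 0.999. A p that misses the threshold does not show that the regions were alike. In pit-like cells Clps and Pla2g1b, whose mean levels there were below those of mast-like cells, differed by 1.19 ± 0.88 and 1.36 ± 0.82 (adjusted p = 0.999 each). With the 4 plates of like depth alone, where 2.86% of 8425 genes passed in pit-like cells, these differences were 0.44 and 0.55, with adjusted p of 0.00536 and 0.000276.

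Genes whose levels were most like those of each member were found by Pearson's r of log2(CPM + 10) over 43 sums of a class and a plate, among 11082 genes; these sums share plates and depth, and r is a description. Pnliprp1 was closest to Pamr1 (0.958), Cbs (0.954) and Rtn4rl1 (0.944), and Cel to Pappa2, Rspo4 and Peg3 (0.973, 0.969 and 0.969). Pnliprp2 was closest to Gif, the intrinsic factor gene (0.976), then to Gpr30 and Pdia2. Try4 was closest to Try10 (0.978), and Chia to Sostdc1 (0.961), Try10 and Col7a1. Clps, Pla2g1b and Pgc had Furin, a proprotein convertase, among their 3 closest genes, at 0.956, 0.940 and 0.786. Pga5 was closest to Slc9b2 (0.926), Tstd1 and Efna4, and Cym was less like any gene, with Lrp2 the closest at 0.641.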

How the data were processed

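The deposited tables give whole-number UMI counts per gene and well, as their values show; mm9 was the build, per the submitters' processing notes. Aligner and counter are not given in the sources used. Although the values are counts, limma on log2 CPM was used, and no count model was run. Plates were replicates, and regions came from the titles. ERCC rows were left out of totals; they took 0.256% to 6.55% of UMIs.

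Wells with at least 1000 UMIs were clustered in scanpy 1.11.5 (2000 variable genes without the 10 members, 30 components, 15 neighbours, Leiden resolution 1), without batch correction or a doublet caller. A cluster was named from markers detected in over 25% of its cells, with 3 or more markers and a mean log2 fold of 0.5. The members, lists and markers were chosen with earlier results of these data known. Named genes were the members, their 3 most similar genes, and in each list the most abundant genes.

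Counts were summed per plate and class (10 cells or more), scaled by TMM and tested, with a pseudocount of 2 and a trend on the mean, by limma 3.58.1 under R 4.3.3 with Benjamini-Hochberg adjustment, pylorus minus corpus. Genes needed about 10 counts in the plates of the smaller group and 15 in all. Corrected counts are the number of molecules that would be expected to give the observed number of distinct UMIs of 6 bases. The test was tried on simulated data. Intervals and floors (3 counts) cover counting error only. Promoters were read from RefSeq, and no coordinates of mm9 were used. Alternatives covered scaling, filters, depth, plates, clustering, pseudocount and weights.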

Additional observations from a re-analysis of the deposited data

Results flagged for a closer look

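In each group of 4 corpus plates the highest or lowest plate was compared with the spread of the others. For normally distributed values chance flags about 1 in 20 groups, and 7 of 29 groups were flagged. A group with a single plate above 0 is always flagged, as for Cym and Try4 below, so the count cannot be set against that rate. Over all cells, corpus 2 was far above the other corpus plates for Cel at 1196 CPM (others 4.46 to 136.5), Pnliprp1 at 2063 CPM (68.3 to 209), Pnliprp2 at 646.5 CPM (121.5 to 183) and Chia at 24843 CPM (3229.7 to 5193). That plate also held 85 of the 174 corpus endocrine-like cells and 56 of the 121 corpus chief-like cells, and the part of this in the levels was not tested. Cym was flagged in corpus 4 at 1.36 CPM over all cells and 8.22 CPM in neck-like cells, with 0 in the other corpus plates, from a single well. Try4 in endocrine-like cells was flagged in corpus 2 at 1.39 CPM, with 0 in the others.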

How the results depend on the processing

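Counts of genes with an adjusted p under 0.05 (2, 0, 3, 0 and 0 in all, chief-like, neck-like, pit-like and endocrine-like cells) were 427, 43, 85, 241 and 20 with the 4 plates of like depth alone. In all cells they were 1 without TMM scaling and 1 with thinning to 1000 UMIs, and 0 with at least 3000 UMIs per well, a pseudocount of 0.5 or voom weights. Without a filter on low counts 3 genes passed in chief-like and 1 in pit-like cells; in neck-like cells thinning and a clustering resolution of 2.0 each gave 1, and in pit-like cells keeping the members in the clustering gave 1. Leaving out 1 plate gave 0 in all cells, 0 to 3 in chief-like, 1 to 3 in neck-like, 0 to 1 in pit-like and 0 in endocrine-like cells. The replicate numbers 1 to 3 occur in both regions, but nothing says that they pair plates; deviations of same-numbered plates correlated at 0.437, -0.0935 and 0.449. With the replicate block 1 gene passed in all cells, 10 in neck-like and 1 in pit-like cells, and Pnliprp1, Cel and Chia in all cells had log2 differences of -0.026, 0.13 and -0.035 and Cel in endocrine-like cells 0.10; chief-like plates share too few numbers for a block. No member passed with the block. Of 410 recomputed log2 differences of members, 370 had the same direction and side of the threshold, 34 had the other sign with adjusted p of 0.186 or above, and 6 newly passed. Those that passed were Cym in chief-like cells without the filter (5.24), without pylorus 1 (6.24) and in the 4 plates (6.12), Cym in all cells in the 4 plates (5.43), and Clps and Pla2g1b in pit-like cells in the 4 plates (0.44 and 0.55). Other sign changes were Pnliprp1 in all cells with thinning (-0.52), Cel in all cells with at least 3000 UMIs (0.42), Chia in all cells in the 4 plates (-0.058) and with corrected counts (-0.051), and Try4 in chief-like cells in the 4 plates (-0.58). Leaving out 1 plate moved, in all cells, Cel between -1.62 and 1.10, Chia between -0.39 and 0.66, Pga5 between -1.42 and 0.35, Pnliprp1 between -0.70 and 1.01 and Pnliprp2 between -0.30 and 0.71; Cel and Pnliprp1 in endocrine-like cells between -1.21 and 0.34 and between -0.61 and 0.17; Pga5 in neck-like cells between -1.27 and 0.35; Pnliprp2 and Try4 in chief-like cells between -0.57 and 0.11 and between -0.43 and 0.85. The difference in wells with Cym was 4.69 to 8.06 percentage points, and that of the Chia medians -1582 to -513.5 UMIs, always lower in the pylorus. Of 210 recomputed levels 203 lay within 1 SD; 5 of the other 7 came with corrected counts, among them Pgc in chief-like cells. The causes were not tested. Alternatives tried after seeing the data were the pseudocount of 0.5, the weights, clusterings in the region fits and those of the Cym and Chia measures. DESeq2 was not run. Corpus 1 and pylorus 1 limit the depth of every fit over all plates.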

Other observations

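A cluster of 61 shallow wells, with a median of 1604 UMIs and no class name, also held much of the members' RNA. In the 3 plates with at least 10 such wells the 10 genes took 41.9% ± 9.38 of UMIs (SD), with Pgc at 24.3% ± 11.8, Clps at 8.73% ± 3.91, Pla2g1b at 7.08% ± 0.763 and Chia at 1.59% ± 1.17. The marker rule without the members gave them no name, and with Pgc, Pga5 and Chia among the chief cell markers they met it but were too shallow to be named. They counted among all kept cells and among the other cells of a plate, and in no named class.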
